A study of Mus musculus with 6 samples.

Results

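The genes described here are ribosome biogenesis factors, the nucleolar proteins that transcribe, modify, cut and fold ribosomal RNA (rRNA) and assemble it with ribosomal proteins. They were taken as the rows of the count table whose symbol is on a list of 43 genes. A row was found for 42 of the 43 among 21240 counted genes, Noc2l was not analysed here, and all 42 passed the filter on low values that left 11080 genes for testing. The rule reads the symbol alone, but the list was chosen with earlier results of these data known. RNA came from NMuMG cells, an epithelial line from normal mouse mammary gland that was grown with serum and insulin and then deprived of both for 6 h in all 3 groups. The vehicle group received HCl and bovine serum albumin for 2 h, and the other groups received TGFβ1 at 5 ng/ml in the same vehicle for 2 h (TGFb2h) or 12 h (TGFb12h). There were 2 biological replicates per group, 6 stranded total RNA libraries in all. Because vehicle cells were taken at 2 h, 12 h of TGFβ and a longer time without serum and insulin cannot be told apart in comparisons with 12 h.

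Ribosomes are made in the nucleolus. RNA polymerase I copies the rDNA into a long precursor, small nucleolar ribonucleoproteins (snoRNPs) of the box C/D and box H/ACA kinds direct its 2′-O-methylation and pseudouridylation, and 2 lines of assembly factors carry the small and the large subunit to export. These genes are known to be expressed together in growing cells, and many are known targets of Myc, which binds the E-box CACGTG as a dimer with Max.

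That E-box was therefore searched, as the exact letters CACGTG (a palindrome, so that a match stands on both strands), in RefSeq promoter windows of build GRCm38.p6 that run from 250 bases before to 50 bases after the start of transcription. A window was given for 37 of the 42 members, but not for Npm1, Fbl, Rrp12, Bop1 and Rrs1. The E-box was found in 9 of the 37 windows (24.32%, exact 95% Clopper-Pearson interval 11.77% to 41.2%), against 10.52% of 8918 windows of tested genes and 7.24% of all 27025 windows. The members with a match are shown by 30 bases around each, 5′ to 3′ on the strand of the gene and with the E-box in capitals, from the gene with the highest to that with the lowest log2FC at 12 h.
Grwd1 (chr7:45830740-45830769, minus strand): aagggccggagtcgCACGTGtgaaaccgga
Tsr1 (chr11:74898092-74898121, plus strand): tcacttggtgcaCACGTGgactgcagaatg
Nop2 (chr6:125131811-125131840, plus strand): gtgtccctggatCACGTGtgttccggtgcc
Utp20 (chr10:88826765-88826794, minus strand): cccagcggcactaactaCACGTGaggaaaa
Wdr43 (chr17:71616220-71616249, plus strand): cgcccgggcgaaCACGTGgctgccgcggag
Utp18 (chr11:93885769-93885798, minus strand): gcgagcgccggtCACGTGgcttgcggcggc
Ltv1 (chr10:13193092-13193121, minus strand): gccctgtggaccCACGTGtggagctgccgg
Pes1 (chr11:3963965-3963994, plus strand): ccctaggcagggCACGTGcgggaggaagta
Rrn3 (chr16:13780472-13780501, plus strand): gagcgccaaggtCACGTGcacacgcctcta
Rrn3 (chr16:13780639-13780668, plus strand): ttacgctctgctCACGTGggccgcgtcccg

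Of these 10 matches, 6 begin after the start of transcription, within the first 50 transcribed bases. They begin 2 bases after it in Pes1, 17 in Wdr43, 24 in Tsr1, 28 in Ltv1, 34 in Grwd1 and 37 in Utp20, counted from 0 at the first transcribed base. The other 4 begin at -20 in Utp18, at -60 in Nop2 and at -48 and -215 in Rrn3. When only the 250 bases before the start were read, 3 of 37 members had the E-box (8.11%), close to the 8.7% of tested genes. The looser letters CANNTG stood in 67.57% of member windows, 61.86% of tested genes and 72.15% of all windows. A match is a run of letters and not a shown binding site, and the share of members with a match in the whole window rests on the 50 bases after the start.

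**Figure D1:**
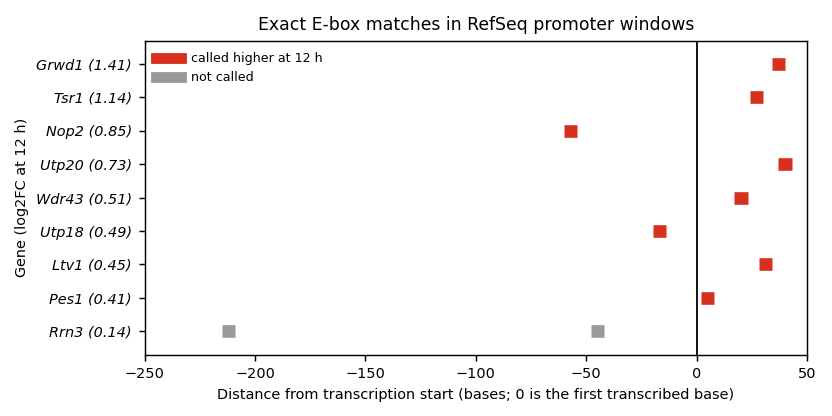
Position of each exact E-box match in the 300-base RefSeq promoter windows of 9 members, as the distance from the start of transcription in bases, with genes ordered by their log2FC at 12 h. The matches of 6 genes lie after the start, between 2 and 37 bases, and Rrn3, the gene without a call at 12 h, holds both of its matches before it.

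The libraries held 14705886 to 23786993 counts. The members held 0.252% and 0.280% of all counts in the vehicle libraries, 0.228% and 0.246% at 2 h and 0.357% and 0.383% at 12 h. Levels below are CPM, the counts relative to library size with TMM factors applied, and changes are log2FC ± SE by edgeR (quasi-likelihood test, Benjamini-Hochberg adjustment over all 11080 genes), with a call at an adjusted p under 0.05. In RNA from whole cultures, fewer cells that express a gene and less RNA per cell cannot be told apart. Of 8 epithelial markers, Cdh1, Krt8, Krt18, Krt7 and Ocln passed the filter, whereas Epcam, Cldn3 and Esrp1 lay below it in every group. The summed CPM of the epithelial list was 3363 to 4024 in vehicle, 4739 to 4860 at 2 h and 9939 to 9966 at 12 h, most of it from Krt8 and Krt18 (log2FC 1.63 and 1.53 at 12 h), whereas Cdh1 and Ocln were not called at 12 h (log2FC -0.07 and -0.52), and its part in the results below was not tested. Markers of immune cells, endothelium and adipocytes were all below the filter, with a summed CPM of at most 1.05, 1.95 and 0.202 per library. The TGFβ response genes Smad7, Skil and Snai1 were higher at both times, with a log2FC of 2.07 or more.

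After 12 h of TGFβ most ribosome biogenesis factors were more abundant than in vehicle, whereas after 2 h no member was called in either direction. At 12 h 35 of 42 members were called higher (83.3%) and 0 lower, against 21.8% of all tested genes called higher and 21.5% called lower. The median log2FC of the members was 0.69 at 12 h, beside 0.02 for all tested genes, and 40 of the 42 values were positive. The rise was moderate in size: 10 members had a log2FC above 1 with a call, where 8.03% of all genes did, and the highest value was 1.41 for Grwd1. Both 12 h libraries lay above the other 4 libraries in 38 members, which 26.4% of all genes did. The members' summed CPM was 2417 and 2626 in vehicle, 2374 and 2475 at 2 h and 3700 and 3958 at 12 h, so that the 12 h libraries stood apart and the 2 h libraries overlapped the range of vehicle.

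With library sizes taken as total counts, without TMM factors, the median of all genes moved to -0.11 at 12 h. The split of all calls then changed from 21.8% higher and 21.5% lower to 16.5% higher and 27.5% lower, and 30 members were called higher with a median log2FC of 0.56. The calls lost were those of Nop14, Noc4l, Ltv1, Pes1 and Mrto4. The count of members called was 18 without TGFb12h replicate 2, where 12.0% of all genes were called higher, and 23 without vehicle replicate 1, where 14.2% were.

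**Figure D2:**
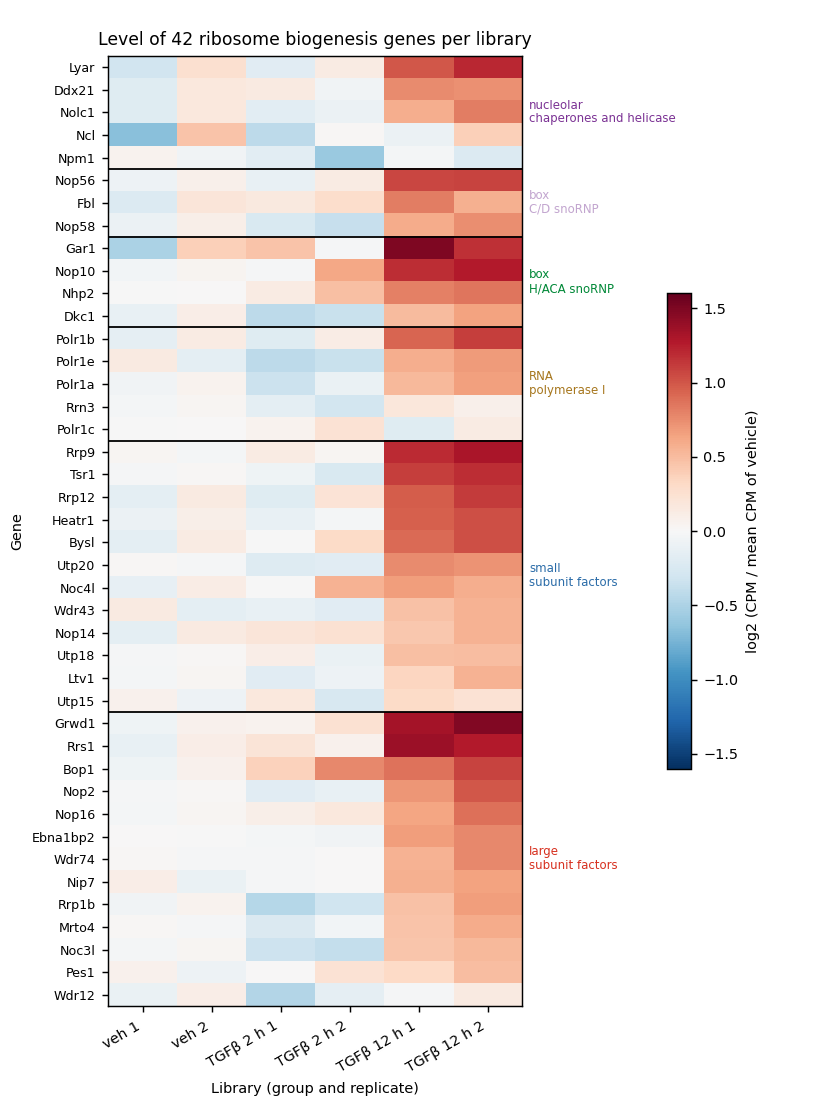
Level of the 42 members (rows, grouped by role and ordered by log2FC at 12 h) in the 6 libraries (columns), as the log2 ratio of TMM-scaled CPM to the mean of the vehicle libraries. Red marks higher and blue lower values; the 12 h columns are red for most genes of every role, and the rows of Ncl, Npm1, Polr1c, Rrn3 and Wdr12 are pale or mixed.

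**Figure D3:**
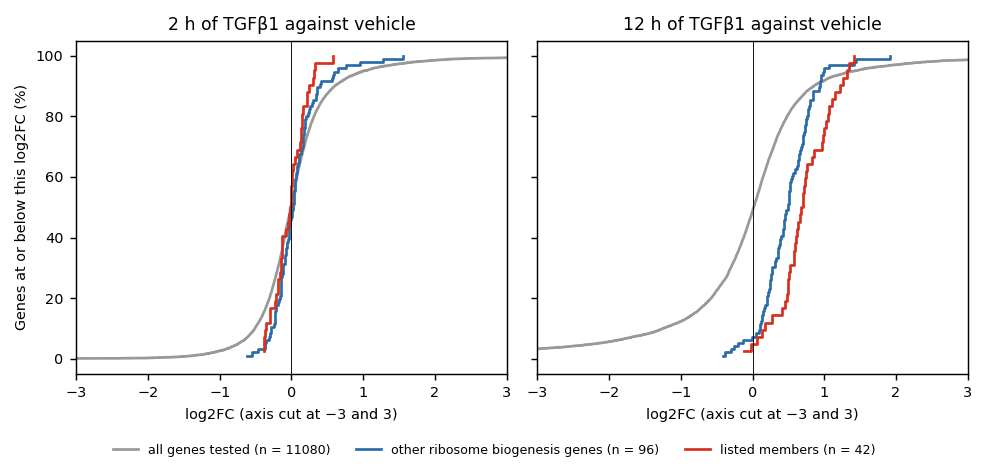
Cumulative share of genes (%) at or below each log2FC for the 42 members, the 96 other ribosome biogenesis genes and the 11080 genes tested, at 2 h (left) and 12 h (right) against vehicle. The curves cross near 0 at 2 h, while at 12 h the members (median 0.69) and the other ribosome biogenesis genes (median 0.49) lie to the right of all genes (median 0.02) over most of their range.

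Among the nucleolar chaperones and RNA helicase, 3 of 5 members were called higher at 12 h. Lyar, a nucleolar zinc finger protein, had 8.89 and 13.1 CPM in vehicle, 9.72 and 12.1 at 2 h and 21.8 and 25.3 at 12 h. Its 12 h libraries lay above all others (log2FC 1.10 ± 0.23, edgeR's adjusted p = 0.00838, and 0.0660 without TGFb12h replicate 2). Ddx21, an RNA helicase that acts on rRNA, had 122 and 157 CPM in vehicle, 155 and 134 at 2 h and 236 and 232 at 12 h. The vehicle and 2 h libraries overlapped, and 12 h stood apart (log2FC 0.75 ± 0.15, adjusted p = 0.00676, with 0.0548 and 0.0506 when either 12 h library was left out). Nolc1, a chaperone of snoRNPs, was also called (log2FC 0.71, adjusted p = 0.00946, with 0.0540 without vehicle replicate 1 and 0.0778 without TGFb12h replicate 2).

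The other members of this group, Npm1 and Ncl, went without a call. Npm1, nucleophosmin, had 324 and 301 CPM in vehicle, 278 and 208 at 2 h and 306 and 268 at 12 h. Its levels overlapped between vehicle and 12 h (log2FC -0.12 ± 0.16, edgeR's adjusted p = 0.577), and at 2 h both libraries lay below both of vehicle (log2FC -0.36, adjusted p = 0.184, and 0.0247 without TGFb2h replicate 1). Only 71.7% of the 50-base stretches in Npm1 exons occur at a single place in the NCBIM37 genome, and reads of other stretches could not be counted as unique. Of the 42 members, 6 had over 10% of such stretches in more than 1 place. Beside Npm1 and Fbl these were Pes1, Nop56, Rrs1 and Mrto4, all called at 12 h, with 75.97%, 81.4%, 87.04% and 88.15% at a single place. Ncl, nucleolin, had 86.2 and 187 CPM in vehicle, and this range held all 4 TGFβ libraries (103, 138, 128 and 179). The replicates of Ncl thus differed more than the groups, and its SE at 12 h, 0.36, was the widest of the 42 members (log2FC 0.17, adjusted p = 0.739).

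All but 1 of the 7 snoRNP proteins were called higher at 12 h. Of the box C/D proteins, Nop56 had 52.4 and 58.5 CPM in vehicle, 50.9 and 60.7 at 2 h and 116 and 117 at 12 h. Vehicle and 2 h were alike in range, and the 12 h level was 2.10-fold that of vehicle (log2FC 1.07 ± 0.12, edgeR's adjusted p = 0.000741). Nop58, its partner in the core of the particle, had 74.4 and 85.0 CPM in vehicle, 67.4 and 61.7 at 2 h and 120 and 134 at 12 h. Here the 2 h libraries were the lowest of the 6, without a call (log2FC -0.31, adjusted p = 0.144), and the 12 h libraries the highest (log2FC 0.67 ± 0.12, adjusted p = 0.00449). Fbl, fibrillarin, the methyltransferase of the particle, had only 45 and 55 counts in vehicle, 68 and 74 at 2 h and 125 and 89 at 12 h (2.65 and 3.51, 3.44 and 3.73, and 5.45 and 4.57 CPM). Both 12 h libraries were the highest for Fbl, but its log2FC of 0.71 ± 0.25 missed the threshold (adjusted p = 0.0573, and 0.0467 when at least 10 counts in every library were required). Of the 50-base stretches in Fbl exons, 84.9% occur at more than 1 place in the genome, so that its counts rest on a small part of the transcript.

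The 4 box H/ACA proteins, which form the pseudouridine-making particle with Dkc1 as the enzyme, were all called higher. Gar1 had 2.41 and 4.46 CPM in vehicle, 4.71 and 3.38 at 2 h and 9.72 and 7.71 at 12 h. The 12 h libraries lay above the others (log2FC 1.35 ± 0.34, edgeR's adjusted p = 0.0183), but its counts were few, 41 to 223, and the adjusted p was 0.0819 without vehicle replicate 1, 0.119 without TGFb12h replicate 1 and 0.0609 without TGFb12h replicate 2. Nop10 had 51.8 and 54.6 CPM in vehicle, 52.4 and 81.6 at 2 h and 121 and 128 at 12 h, a 2.33-fold rise at 12 h (log2FC 1.22 ± 0.20, adjusted p = 0.00337). Its 2 h libraries differed widely, and without TGFb2h replicate 1 it was called higher at 2 h too (log2FC 0.60, adjusted p = 0.0161). Dkc1, dyskerin, had 39.3 and 46.2 CPM in vehicle, 32.1 and 33.3 at 2 h and 60.6 and 66.9 at 12 h. Both of its 2 h libraries lay below vehicle (log2FC -0.39 ± 0.12, adjusted p = 0.0872) and both 12 h libraries above it (log2FC 0.58 ± 0.12, adjusted p = 0.00928, with 0.0653 without vehicle replicate 1 and 0.0792 without TGFb12h replicate 2). Nhp2 had a log2FC of 0.83 at 12 h (adjusted p = 0.00312).

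Of the 5 genes of RNA polymerase I, 3 were called higher at 12 h (Polr1a, Polr1b and Polr1e). Polr1b, the second-largest subunit, had 35.8 and 43.3 CPM in vehicle, 34.7 and 43.1 at 2 h and 75.4 and 85.3 at 12 h. Its level did not move at 2 h beyond the spread of the replicates and was 2.03-fold that of vehicle at 12 h (log2FC 1.02 ± 0.16, edgeR's adjusted p = 0.00252). Polr1e had 15.9 and 13.0 CPM in vehicle, 10.8 and 11.3 at 2 h and 21.6 and 23.3 at 12 h. The 3 groups of Polr1e did not overlap, with 2 h the lowest (log2FC -0.39 ± 0.16, adjusted p = 0.160) and 12 h the highest (log2FC 0.63 ± 0.16, adjusted p = 0.0168, and 0.106 without vehicle replicate 2, 0.0722 without TGFb12h replicate 1 and 0.110 without TGFb12h replicate 2). Polr1a, the largest subunit, had a log2FC of 0.59 (adjusted p = 0.00838, with 0.0600 without vehicle replicate 1 and 0.0672 without TGFb12h replicate 2).
Polr1c, a subunit that RNA polymerase III also uses, had 81.6 and 81.7 CPM in vehicle, 85.0 and 95.7 at 2 h and 71.6 and 89.1 at 12 h, with the vehicle values inside the 12 h range (log2FC -0.02 ± 0.13, edgeR's adjusted p = 0.908). Rrn3, the factor that brings the polymerase to the rDNA promoter, had a log2FC of 0.14 ± 0.10 at 12 h (adjusted p = 0.310). Rrn3 is also the member with a pair of E-boxes before its start.

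The small subunit factors were called higher in 11 of 12 members, with a median log2FC of 0.68 at 12 h. Rrp9, a protein of the U3 snoRNP that guides early cleavage of the precursor, had 19.8 and 19.1 CPM in vehicle, 21.3 and 20.0 at 2 h and 44.6 and 48.4 at 12 h. Tsr1, a late factor of the pre-40S particle, had 64.8 and 66.7 CPM in vehicle, 62.8 and 55.4 at 2 h and 141 and 149 at 12 h. Replicates of both genes were close, and the 12 h levels were 2.38-fold for Rrp9 (log2FC 1.25 ± 0.12, edgeR's adjusted p = 0.000348) and 2.21-fold for Tsr1 (log2FC 1.14 ± 0.11, adjusted p = 0.000327). Noc4l, a partner of Nop14, had 27.4 and 32.7 CPM in vehicle, 30.02 and 44.2 at 2 h and 47.6 and 44.8 at 12 h. A single 2 h library came close to the 12 h level and the other stayed in the vehicle range, and its call at 12 h (log2FC 0.62 ± 0.20, adjusted p = 0.0428) did not hold without either vehicle or either 12 h library, with an adjusted p from 0.0718 to 0.191.
The other small subunit factors called at 12 h were Rrp12 (log2FC 1.05), Heatr1 (0.99), Bysl (0.97), Utp20 (0.73), Wdr43 (0.51), Nop14 (0.49), Utp18 (0.49) and Ltv1 (0.45). The first 4 of these kept their calls under each of the 14 alternatives, and the last 4 did not. Utp15, which acts with the transcription of rDNA and early processing, had a log2FC of 0.26 ± 0.16 (adjusted p = 0.213).

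The large subunit factors were called higher in 12 of 13 members, with a median log2FC of 0.66. Grwd1, a WD-repeat protein of the large subunit pathway, had 26.6 and 29.1 CPM in vehicle, 28.9 and 32.9 at 2 h and 70.4 and 77.6 at 12 h. It had the largest rise among the 42 members, 2.66-fold (log2FC 1.41 ± 0.12, edgeR's adjusted p = 0.000273). Rrs1, which helps to load the 5S RNP, had 12.5 and 14.7 CPM in vehicle, 15.6 and 14.2 at 2 h and 35.2 and 32.6 at 12 h, a 2.50-fold rise at 12 h (log2FC 1.32 ± 0.15, adjusted p = 0.000644).
The 3 proteins of the PeBoW complex, Pes1, Bop1 and Wdr12, which act together in processing of the large subunit rRNA, had different values. Bop1 had 105 and 114 CPM in vehicle, 141 and 186 at 2 h and 200 and 231 at 12 h. Its groups did not overlap, and it had the highest log2FC of the members at 2 h (0.58 ± 0.16, edgeR's adjusted p = 0.0547), which was called by DESeq2 (adjusted p = 0.0107), without a filter (0.0377) and without TGFb2h replicate 1 (0.0108). At 12 h Bop1 was called (log2FC 0.98 ± 0.16, adjusted p = 0.00314). Pes1 had a log2FC of 0.41 ± 0.13 (adjusted p = 0.0383), the smallest change among the members called, and lost its call without either vehicle or either 12 h library (adjusted p 0.0788 to 0.212). Wdr12 had a log2FC of 0.07 ± 0.15 (adjusted p = 0.762), and its 12 h libraries overlapped those of vehicle.
The remaining large subunit factors called at 12 h had a log2FC between 0.48 (Noc3l) and 0.85 (Nop2, an rRNA methyltransferase), with Nop16, Ebna1bp2, Wdr74, Nip7, Rrp1b and Mrto4 between them. Noc3l, Nip7, Rrp1b and Mrto4 had an adjusted p between 0.0570 and 0.148 without TGFb12h replicate 2 (edgeR). Noc3l, Rrp1b and Mrto4 also lost their calls without vehicle replicate 1 (adjusted p = 0.0603, 0.0824 and 0.0946), and Mrto4 without vehicle replicate 2 (0.117) and TGFb12h replicate 1 (0.0783).

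**Figure D4:**
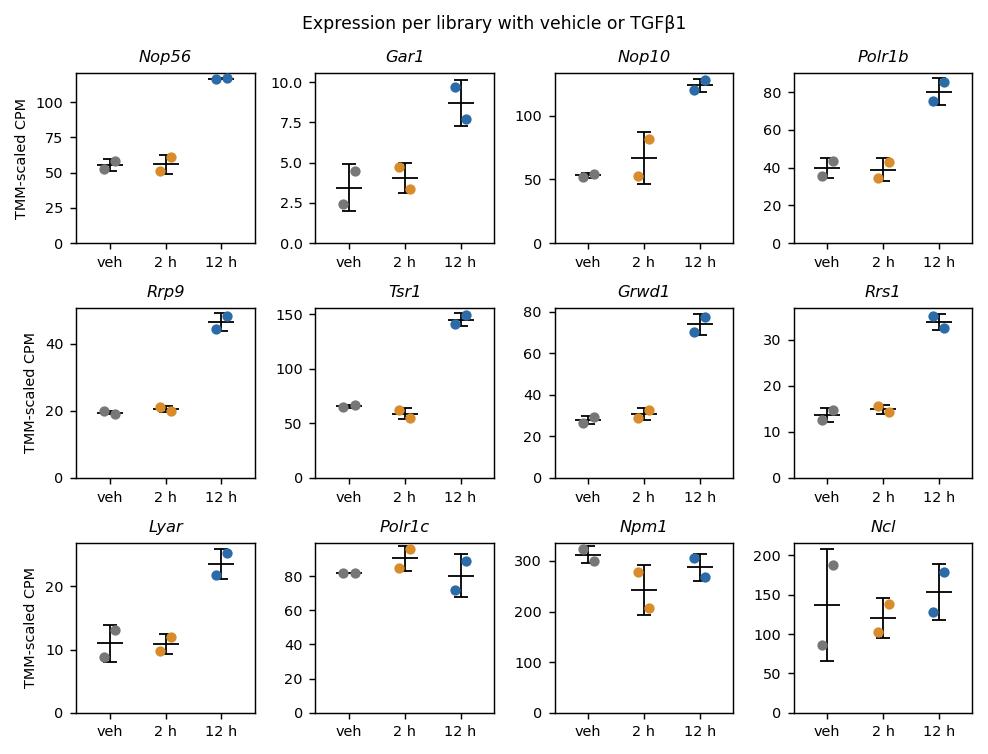
TMM-scaled CPM of 12 members in each library (points) with the group mean and SD (bars, n = 2), for vehicle, 2 h and 12 h of TGFβ1. Both 12 h points lie above the other 4 in Nop56, Gar1, Nop10, Polr1b, Rrp9, Tsr1, Grwd1, Rrs1 and Lyar, and overlap with vehicle in Polr1c, Npm1 and Ncl.

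At 2 h 0 of 42 members were called higher and 0 lower by edgeR's quasi-likelihood test, against 9.91% and 5.25% of all tested genes. The lowest adjusted p was 0.0547, and at an unadjusted p under 0.05 there were 1 member higher and 5 lower, against 16.9% and 12.8% of all genes. limma-voom called 0 in each direction, and DESeq2 called Bop1 higher and Noc3l lower (log2FC -0.37, adjusted p = 0.0327). The members past the threshold without TGFb2h replicate 1 had a log2FC of 0.47 (Nhp2), 0.60 (Nop10), 0.54 (Noc4l), 0.75 (Bop1) and -0.61 (Npm1). With all libraries the median log2FC was -0.02, with a range from -0.39 (Polr1e) to 0.58 (Bop1). Both 2 h libraries lay below both vehicle libraries in 15 members and above both in 6, where 27.5% and 28.3% of all genes did so. With total counts in place of TMM factors the median of all genes was -0.12 and that of the members -0.13, and Dkc1 and Noc3l were called lower.

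The direct comparison of 12 h with 2 h, in which vehicle libraries enter only the estimate of the spread, had 32 of 42 members higher (76.2%) and 0 lower, against 15.2% and 18.9% of all tested genes. At an unadjusted p under 0.05, 0 members were lower in this comparison and in that of 12 h with vehicle, against 23.8% and 25.7% of all genes, and limma-voom and DESeq2 also called 0 lower. The median log2FC was 0.79, from -0.17 (Polr1c) to 1.30 (Tsr1), and 11 members had a call and a log2FC above 1, as 4.5% of all genes did. Tsr1 had the largest difference (log2FC 1.30 ± 0.11, edgeR's adjusted p = 0.000494), followed by Grwd1 (1.26, adjusted p = 0.000817) and Rrs1 (1.18, adjusted p = 0.00170). Rrn3 passed the threshold here (log2FC 0.36, adjusted p = 0.0329) and not against vehicle. This call on Rrn3 was lost without either vehicle library (0.0662 and 0.0665), without TGFb12h replicate 1 or 2 (0.197 and 0.109), without TGFb2h replicate 2 (0.102) and when only the compared groups were fitted (0.0644). Nop14, Noc4l, Pes1 and Bop1 passed the threshold against vehicle and not here. The count was 17 without TGFb12h replicate 2, where 5.78% of all genes were called higher, and 21 without TGFb12h replicate 1, where 5.88% were.

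**Figure D5:**
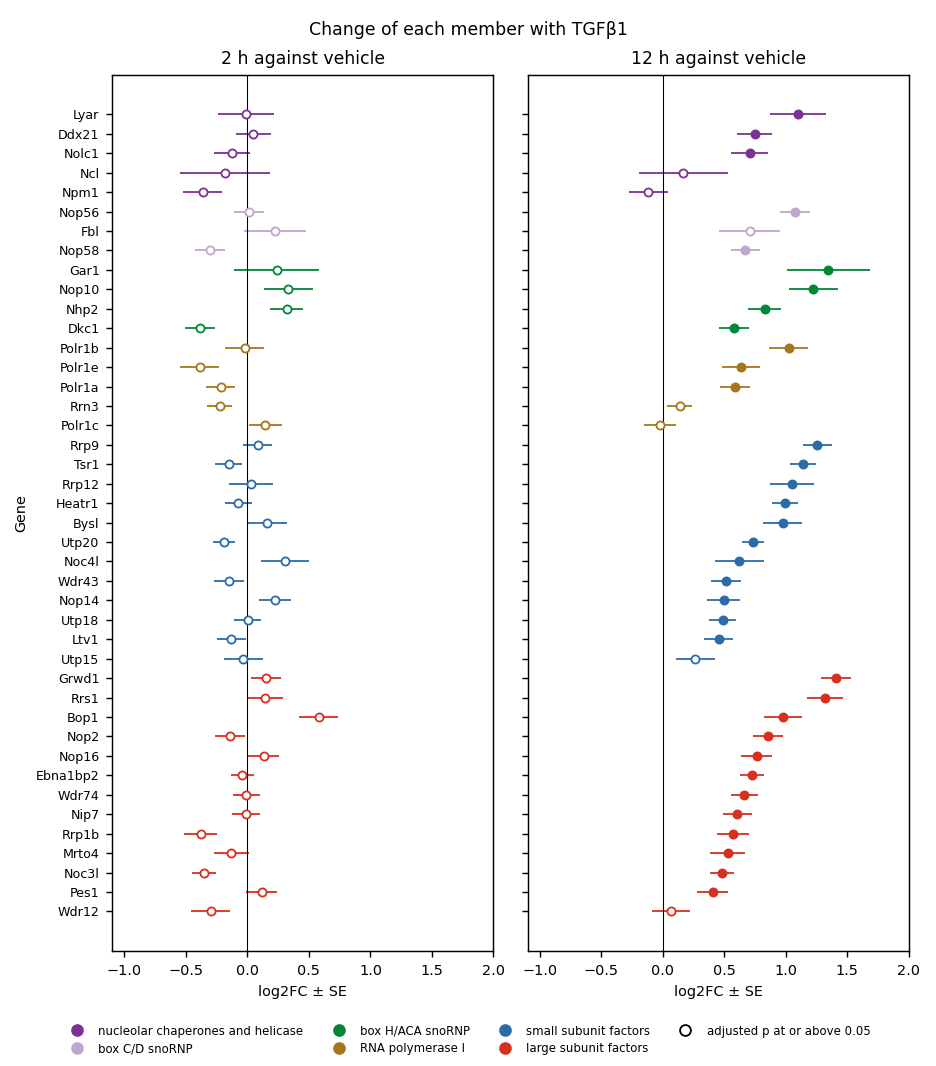
log2FC ± SE of each member against vehicle at 2 h (left) and 12 h (right), colored by role, with filled points where edgeR's adjusted p was under 0.05. No point is filled at 2 h, and 35 of 42 are filled at 12 h, all to the right of 0.

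Outside the 42, a list of 96 other ribosome biogenesis genes was tested in the same fit. At 12 h 54 were called higher and 2 lower, where 21.8% and 21.5% of all genes were, with a median log2FC of 0.49. Without TGFb12h replicate 2 the count higher was 28, where 12.0% of all genes were called. The largest rise was that of Cd3eap, a subunit of RNA polymerase I, with 18.1 and 17.4 CPM in vehicle, 61.4 and 43.6 at 2 h and 64.3 and 69.4 at 12 h (log2FC 1.91 at 12 h, edgeR's adjusted p = 0.000332). Ppan, a large subunit factor, had 33.4 and 30.3 CPM in vehicle, 35.5 and 39.7 at 2 h and 78.9 and 94.0 at 12 h (log2FC 1.44, adjusted p = 0.000321). Las1l, of the complex that cuts the internal transcribed spacer, had 42.9 and 71.6 CPM in vehicle, 103 and 119 at 2 h and 141 and 163 at 12 h (log2FC 1.41, adjusted p = 0.00377). In Cd3eap, Ppan and Las1l both 2 h libraries already lay above vehicle, though Ppan was not called at 2 h (log2FC 0.24, adjusted p = 0.281). The genes called lower were Polr1d and Ddx55. Polr1d, a subunit shared with RNA polymerase III like Polr1c, had 67.5 and 62.9 CPM in vehicle, 66.3 and 68.2 at 2 h and 46.7 and 51.0 at 12 h. Its 12 h libraries were the lowest (log2FC -0.42 ± 0.10, adjusted p = 0.0168). Of the 10 other RNA polymerase I genes on this list, 3 were called higher at 12 h and 1, Polr1d, lower. Znrd1 (Polr1h) and Twistnb (Polr1f) were not called (log2FC 0.24 and 0.45, adjusted p = 0.218 and 0.166). Ddx55, a helicase of the large subunit pathway, had 43.46 and 42.96 CPM in vehicle, 28.8 and 27.3 at 2 h and 33.6 and 32.4 at 12 h (log2FC -0.39, adjusted p = 0.0241), with 2 h the lowest. Neither of these falls passed the threshold when any vehicle or 12 h library was left out (adjusted p 0.0503 to 0.106 for Polr1d and 0.0898 to 0.122 for Ddx55).

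Myc and its partners were read beside the members, since the E-box is their site. Myc had 12.5 and 21.0 CPM in vehicle, 16.2 and 18.5 at 2 h and 59.7 and 65.9 at 12 h. The 2 h libraries lay inside the vehicle range (log2FC 0.05 ± 0.24, edgeR's adjusted p = 0.907), and both 12 h libraries stood far above it (log2FC 1.91 ± 0.24, adjusted p = 0.00113). Max, the dimer partner, had a log2FC of 0.75 at 12 h (adjusted p = 0.00404). Of the Mxd proteins, which compete with Myc for Max, Mxd1 (log2FC -0.43, adjusted p = 0.0307) and Mxd4 (-0.42, adjusted p = 0.0286) fell at 12 h. Mxd3 went from 2.77 and 10.2 CPM in vehicle (47 and 160 counts) to 0.174 and 0.103 at 12 h (4 and 2 counts, adjusted p = 0.00476). Mycn fell from 1.35 and 1.53 CPM (23 and 24 counts) to 0.567 and 0.668 (13 and 13 counts, adjusted p = 0.0233). These calls on Mxd1, Mycn and, in 3 of 4 cases, Mxd4 were lost when a vehicle or 12 h library was left out (adjusted p 0.0735 to 0.140), that of Mycn also with DESeq2 (adjusted p = 0.0811) and that of Mxd1 without a filter (0.0526), and that of Mxd3 without TGFb12h replicate 2 (adjusted p = 0.0503). Mxi1, Mnt, Mlx and Mga were not called at 12 h, with a log2FC of 0.07, 0.22, -0.32 and -0.29, but some alternatives called Mga (DESeq2's adjusted p = 0.0393) and Mlx (adjusted p = 0.0448 with total counts) lower. At 2 h Mga (log2FC -0.67, edgeR's adjusted p = 0.00680), Mxd1 (-0.64, adjusted p = 0.0186) and Mlx (-0.55, adjusted p = 0.0374) were called lower, and these calls did not hold without vehicle replicate 1 (adjusted p = 0.0529, 0.0998 and 0.111) and, for Mxd1 and Mlx, without vehicle replicate 2 or either 12 h library (0.0576 to 0.174), nor without TGFb2h replicate 2 for Mxd1 (0.0580) and TGFb2h replicate 1 for Mlx (0.0642). Of the 32 members with a promoter window that were called higher at 12 h, 8 had the E-box in the whole window, and of the 5 not called 1 did. In the 250 bases before the start, 2 of the 32 and 1 of the 5 had it, where 8.7% of tested genes did. The part of Myc in the members' levels was not tested.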

How the data were processed

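Stranded total RNA-seq was read in 6 NMuMG libraries of 3 groups, taken from the submitters' labels. The deposited values are raw counts per gene: the authors filtered reads, aligned them to mm9 with the subjunc function of Rsubread, kept unique reads, removed duplicates with SAMtools 0.1.19 and counted exons by strand with featureCounts. Here, counts were tested in R 4.3.3 with edgeR 4.0.16 (quasi-likelihood test, two-sided), TMM factors (0.961 to 1.07), a filter of 2 CPM reached by 2 or more libraries, 1 fit of the 3 groups and Benjamini-Hochberg adjustment within each contrast. The SE is the absolute log2FC divided by the square root of F. The script was tested on simulated data. Exon stretches of 50 bases were counted on NCBIM37 (GENCODE), the same build as mm9, and promoter letters came from RefSeq on GRCm38.p6. Alternatives used limma 3.58.1, DESeq2 1.42.0, other scalings and filters, the replicate number as a block, the compared groups alone and each library left out. Values in every library are given for the members with the largest changes in each role at 2 h or 12 h and the 3 largest from 2 h to 12 h, and for the 3 other ribosome biogenesis genes highest and those called lower at 12 h. Ncl, Polr1c and other single genes were named after their values had been seen. Members and lists were chosen with earlier results of these data known. Replicates are called biological, and each p-value sets a difference against the spread between these cultures. Precision is limited by 2 libraries per group and, for Gar1, Fbl, Mycn and Mxd3, by counts. The contrasts with vehicle share the same vehicle libraries.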

Additional observations from a re-analysis of the deposited data

Results flagged for a closer look

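Levels after 12 h of TGFβ differed from those after 2 h, by the direct comparison of these groups (edgeR's quasi-likelihood test, Benjamini-Hochberg adjusted p under 0.05), in 32 members. With no vehicle library at 12 h, time of TGFβ and time without serum and insulin cannot be told apart in this difference. Of the members given in every library, Npm1, Ncl, Fbl, Noc4l, Bop1 and Polr1c were not called (log2FC 0.24, 0.35, 0.48, 0.32, 0.40 and -0.17). For those called, the log2FC of this difference was 0.70 for Ddx21, 1.11 for Lyar, 1.06 for Nop56, 0.98 for Nop58, 0.96 for Dkc1, 1.11 for Gar1, 0.89 for Nop10, 1.05 for Polr1b, 1.02 for Polr1e, 1.17 for Rrp9, 1.30 for Tsr1, 1.18 for Rrs1 and 1.26 for Grwd1. Of these, Ddx21, Lyar, Gar1 and Nop10 passed the threshold with all libraries and not when either 12 h library was left out (adjusted p 0.0525 to 0.216), and Gar1 not without TGFb2h replicate 2 (adjusted p = 0.120). Groups of 2 libraries are too small to test for a library that stands apart.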

How the results depend on the processing

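Of the 35 members called higher at 12 h, 18 passed the threshold under each of the 14 alternatives. limma-voom, DESeq2, DESeq2 size factors, no filter and the compared groups alone each called 35 members higher at 12 h. Total counts moved the members' median log2FC to -0.1274 at 2 h and 0.5571 at 12 h, with 30 members higher at 12 h and 2 lower at 2 h. At 2 h DESeq2 called 1 member higher and 1 lower, and no filter 1 higher. When each library was left out in turn, members called higher ranged from 0 to 4 at 2 h, from 18 to 35 at 12 h and from 17 to 33 for 12 h against 2 h, and members called lower at 2 h from 0 to 1. The medians ranged from -0.1116 to 0.0322, from 0.5972 to 0.762 and from 0.6963 to 0.8347, and a lone remaining library was assumed to vary like the other groups. Members with at most 10% of exon stretches in more than 1 place were counted after the data had been seen, and 31 of 36 were called higher at 12 h. The E-box share of 24.32% became 8.11% before the start and 67.57% for CANNTG.

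The labels number the replicates but name no shared day or batch, and each contrast has only 2 pairs. Deviations of same-numbered libraries correlated across 11080 genes at 0.708 (vehicle and 2 h), 0.263 (vehicle and 12 h) and 0.392 (2 h and 12 h). With the replicate block, 1 member was called higher at 2 h (Bop1, adjusted p = 0.00293) and 4 lower (Npm1, Dkc1, Rrp1b and Noc3l, 0.0237 to 0.0349), 36 higher at 12 h and 35 higher for 12 h against 2 h, while calls over all genes rose to 16.4% higher and 12.7% lower at 2 h and to 27.8% and 27.5% at 12 h. The common biological coefficient of variation fell to 0.0910 in that fit, from 0.148.

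For the 96 other ribosome biogenesis genes, run after the data had been seen, leaving out libraries gave 2 to 11 genes higher at 2 h (4.5% to 11.3% of all genes), 28 to 61 at 12 h (12.0% to 24.5%) and 15 to 37 for 12 h against 2 h (5.78% to 15.3%), and 0 to 3 lower at 2 h, 0 to 3 at 12 h and 0 to 2 for 12 h against 2 h. Those lower at 2 h were 5 with total counts, 4 with the replicate block and 1 with the compared groups alone, and those lower at 12 h against 2 h were 1 with no filter and 1 with the compared groups alone. Depth limits Fbl and Gar1, with as few as 45 and 41 counts in a library, and Mycn and Mxd3, with as few as 13 and 2.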

Other observations

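At 2 h 9 of the 96 other ribosome biogenesis genes were called higher and 2 lower by edgeR's quasi-likelihood test, beside 9.91% and 5.25% of all tested genes, so that the share called higher was that of the background. It was not tested against the members. These genes were named after their values had been seen. Cd3eap had 18.1 and 17.4 CPM in vehicle, 61.4 and 43.6 at 2 h and 64.3 and 69.4 at 12 h (log2FC 1.56 ± 0.18 at 2 h, adjusted p = 0.00259), so that most of its rise was present at 2 h. Rcl1, which acts in cleavage of the precursor for the small subunit, had 27.0 and 24.6 CPM in vehicle, 68.8 and 56.2 at 2 h and 53.1 and 54.6 at 12 h (log2FC 1.28 ± 0.13 at 2 h, adjusted p = 0.00193). Eif6, which keeps the large subunit from joining the small, rose by 0.76 on the log2 scale at 2 h (adjusted p = 0.00669, and 0.0617 without vehicle replicate 1), and Sbds, which helps to release Eif6, by 0.60 (adjusted p = 0.00812, with 0.0732 and 0.0627 when either vehicle library was left out). Ddx54, Utp4, Pak1ip1, Wdr18 and Las1l were the others called higher, and Ddx55 (adjusted p = 0.0114, with 0.0817 and 0.0687 when either vehicle library was left out) and Rpf2 those called lower. Ddx54, Utp4 and Pak1ip1 lost their calls without either vehicle library (adjusted p 0.0578 to 0.0817), Las1l under 6 alternatives (0.0626 to 0.109) and Wdr18 under 8 (0.0537 to 0.217). The count higher was 2 without vehicle replicate 1 and 4 without vehicle replicate 2, where 4.5% and 4.94% of all genes were called higher. Rpf2, the partner of Rrs1 in loading the 5S RNP, had 24.8 and 26.9 CPM in vehicle, 16.7 and 18.6 at 2 h and 32.7 and 33.9 at 12 h, so that its libraries were lowest at 2 h and highest at 12 h (log2FC -0.55 ± 0.13 at 2 h, adjusted p = 0.0329, and 0.0722 to 0.162 without either vehicle library, TGFb2h replicate 1 or either 12 h library).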
